A study of Mus musculus with 3 samples.

Results

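Parp9, Dtx3l, Parp14, Parp12 and Parp10 form the interferon-linked group described here, and the DNA damage enzymes Parp1 and Parp2 were set beside them. The 7 genes were taken by symbol from the 32285 genes of the count matrices, and all 7 were found. The material was organoids grown from submandibular salivary glands of C57BL/6 mice aged 8 to 12 weeks, pooled from 4 animals and embedded in Matrigel. The medium of all groups held EGF, FGF2, dexamethasone, Y27632 and media conditioned with Wnt3a and with R-spondin1. Organoids irradiated with 7 Gy of protons on day 5 (proton), organoids given 7 Gy of photons on the same day (photon) and unirradiated organoids (control) were collected on day 11, that is 6 days after irradiation. They were dissociated with trypsin, and 45000 propidium iodide negative cells per group were sorted for single-cell RNA sequencing by droplets, which reads the 3′ ends of transcripts. With 1 library per group, differences between groups have no replicate check, and no test was made.

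PARP enzymes transfer ADP-ribose from NAD to proteins and nucleic acids. Parp1 and Parp2 bind broken DNA and build chains of ADP-ribose that bring in repair factors, whereas Parp10, Parp12 and Parp14 attach single units (mono-ADP-ribosylation). Parp9 carries macrodomains that bind ADP-ribose and works as a complex with Dtx3l, a ubiquitin ligase of the Deltex family. Parp9, Dtx3l, Parp14, Parp12 and Parp10 are known as interferon-stimulated genes with antiviral functions, and Parp14 and the complex of Parp9 with Dtx3l are also known to modulate STAT signalling. Dtx3l is a ligase and no PARP, and the Parp9 part of the complex is not a classical mono-ADP-ribosylating enzyme, so the shared feature of the 5 genes is the link to interferon.

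Parp9, Dtx3l and Parp14 lie beside each other on chromosome 16 (GRCm38). Parp9 (ENSMUSG00000022906, chr16:35938470-35972605, plus strand) and Dtx3l (ENSMUSG00000049502, chr16:35926511-35939151, minus strand) run in opposite directions and overlap by 682 bp at their starts. Parp14 (ENSMUSG00000034422, chr16:35832874-35871544, minus strand) starts 54966 bp from the end of Dtx3l. Parp12 (ENSMUSG00000038507, chr6:39086410-39118349, minus strand) and Parp10 (ENSMUSG00000063268, chr15:76231174-76243441, minus strand) lie on other chromosomes. Parp1 (ENSMUSG00000026496, chr1:180568924-180601254, plus strand) and Parp2 (ENSMUSG00000036023, chr14:50807841-50821301, plus strand) do too.

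RefSeq promoter windows of GRCm38.p6, each running from 250 bases before to 50 bases after a gene's start, were found for Dtx3l, Parp12, Parp1 and Parp2, that is for 4 of the 7 genes. The windows of Dtx3l, Parp12 and Parp1 are shown because the first 2 genes were higher in both irradiated libraries and the last was not. Capitals mark the letters GAAAC, the core shared by interferon regulatory factor sites. The Dtx3l window is chr16:35938978-35939277 on the minus strand and lies inside the annotated span of Parp9. The Parp12 window is chr6:39118300-39118599 on the minus strand, and the Parp1 window is chr1:180568641-180568940 on the plus strand.
Dtx3l: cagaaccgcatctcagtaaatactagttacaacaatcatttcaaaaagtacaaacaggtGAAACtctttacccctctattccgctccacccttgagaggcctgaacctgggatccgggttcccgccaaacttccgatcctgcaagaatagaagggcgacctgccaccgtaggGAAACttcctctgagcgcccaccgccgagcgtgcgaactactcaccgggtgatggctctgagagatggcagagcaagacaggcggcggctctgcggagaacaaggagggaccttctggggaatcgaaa
Parp12: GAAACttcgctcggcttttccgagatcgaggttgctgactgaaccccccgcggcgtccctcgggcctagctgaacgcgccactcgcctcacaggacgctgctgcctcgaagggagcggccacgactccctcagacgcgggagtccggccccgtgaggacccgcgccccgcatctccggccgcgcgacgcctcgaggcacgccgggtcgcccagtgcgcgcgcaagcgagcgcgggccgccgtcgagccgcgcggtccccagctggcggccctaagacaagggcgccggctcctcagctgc
Parp1: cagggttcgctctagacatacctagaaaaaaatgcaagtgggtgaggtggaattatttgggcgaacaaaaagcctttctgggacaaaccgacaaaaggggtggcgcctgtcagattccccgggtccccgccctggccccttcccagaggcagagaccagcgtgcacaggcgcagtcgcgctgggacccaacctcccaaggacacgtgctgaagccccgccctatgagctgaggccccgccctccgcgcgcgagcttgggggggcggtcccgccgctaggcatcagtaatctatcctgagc
Dtx3l held 2 matches to GAAAC and Parp12 held 1, searched on both strands, while Parp1 and Parp2 held 0. The same letters occur in 45.0% of 32851 promoter windows, so a match to them is common. The longer interferon-response pattern, GAAA followed by any 2 bases and GAAA again (3.44% of windows), its form GAAANNGAA that is shorter by 1 base (8.56%) and the STAT pattern TTCNNNGAA (8.30%) were searched in the same way. The longer and the shorter GAAA pattern overlap each other. None of these 3 patterns was found in the 4 windows, which says only that the letters are not there. The windows of Dtx3l, Parp12, Parp1 and Parp2 held 17, 46, 20 and 25 CpG.

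Cells were kept at 500 or more genes and at most 20% mitochondrial UMIs, which left 13956 proton, 15041 photon and 13219 control cells with medians of 2223, 2808 and 2757 UMIs per cell. Kept cells held 36692939 UMIs in the proton library, 46936995 in the photon library and 39514768 in the control library. Between 55 and 61 cell barcodes were shared by each pair of libraries. Levels are CPM, the UMIs of a gene summed over a library and scaled to the same total in each, and the 95% intervals (exact Poisson for levels, exact binomial for ratios and shares) cover counting error only, not the spread between cultures or animals. UMIs of the luminal duct markers summed to 9244 CPM in proton, 11870 CPM in photon and 9509 CPM in control organoids, and of the basal duct markers to 3993, 6739 and 6335 CPM. Shared leukocyte markers summed to 0.872, 0.746 and 0.860 CPM, with Laptm5 and Tyrobp at 0 in every library, and lymphocyte markers to 0.300, 0.277 and 0.253 CPM. Cycling markers summed to 306 CPM in proton, 437 CPM in photon and 95.7 CPM in control organoids, and the part of this difference in the results was not tested.

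The 5 interferon-linked genes were 2.11 to 6.29 times as abundant in the irradiated libraries as in control organoids, and Parp1 and Parp2 were at 0.65 to 1.08 times their control level. A gene was called higher or lower when the ratio of CPM reached 1.5 in either direction and the mean of the pair was at least 5 CPM, a rule of size with no test behind it, and all 7 genes passed the CPM minimum. By this rule, Parp9, Dtx3l, Parp14, Parp12 and Parp10 were all higher in proton than in control organoids, where 14.2% of 10211 genes were higher, and Parp1 and Parp2 were lower, where 14.9% of genes were lower (29.0% in either direction). In photon against control organoids the same 5 genes were higher, where 7.37% of 10090 genes were higher, and none of the 7 was lower, where 9.45% of genes were (16.8% in either direction). The median log2 ratio of the 5 genes was 2.23 in proton and 2.02 in photon organoids over control, against 0.03 and -0.12 over all genes passing the minimum. For Parp1 and Parp2 the median log2 ratio was -0.61 in proton and 0.08 in photon organoids. For each of the 5, between 0.64% and 1.73% of genes had a higher ratio of proton over control, and between 1.01% and 3.32% a higher ratio of photon over control.

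**Figure D1:**
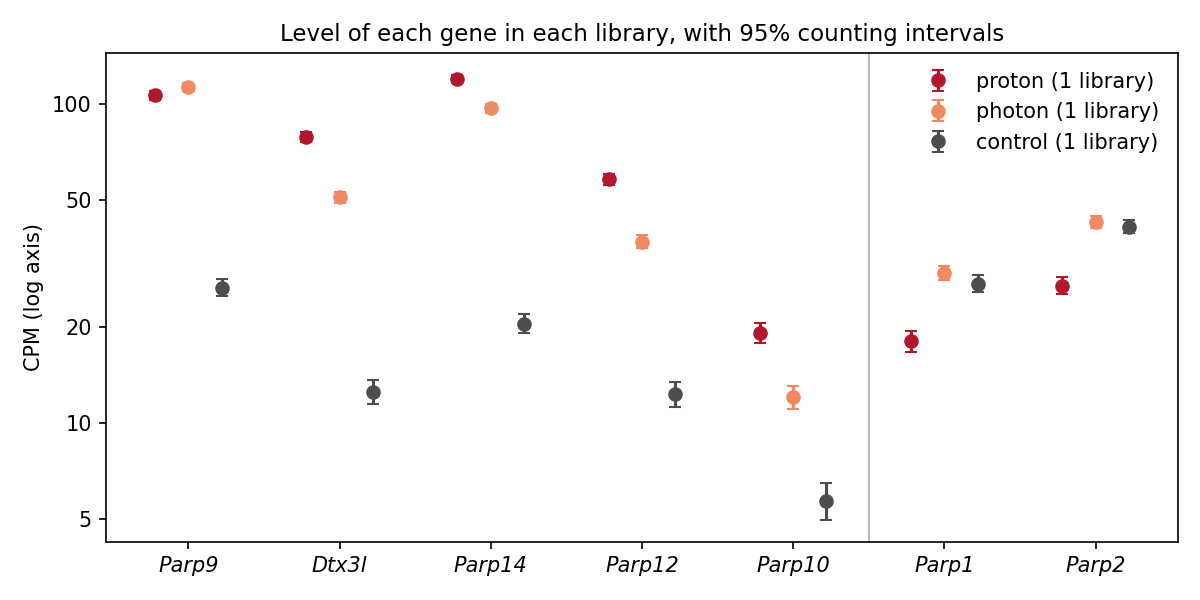
Level of each gene in the proton, photon and control libraries in CPM on a log axis, with points for single libraries and bars for 95% counting intervals. The 5 interferon-linked genes stand apart from control in both irradiated libraries, while Parp1 and Parp2 lie lower in the proton library alone (18.0 and 26.9 CPM).

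Parp9 stood at 106 CPM (interval 103 to 109.8) in the proton library, 113 CPM (109.96 to 116) in the photon library and 26.5 CPM (24.96 to 28.2) in the control library. It was thus 4.01 times (3.74 to 4.29) control in proton and 4.26 times (3.98 to 4.55) control in photon organoids. Parp9 was the only one of the 5 interferon-linked genes that was lower in proton than in photon organoids, at a ratio of 0.941 (0.903 to 0.981), which did not pass the rule of size. Gm15564, a gene antisense to Parp9 that overlaps it by 5854 bp, stood at 28.3 CPM in proton, 7.90 CPM in photon and 7.39 CPM in control organoids. No source used here gives the strand setting of the counting, so the parts of the antisense gene and of Parp9 in these counts are uncertain.

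Dtx3l, the ligase partner of Parp9, had 78.7 CPM (75.9 to 81.7) in proton, 50.9 CPM (48.9 to 53.0) in photon and 12.5 CPM (11.4 to 13.7) in control organoids. The 3 levels did not overlap in their intervals. Its ratio to control was 6.29 (5.71 to 6.93) in proton organoids, the highest of the 7 genes, and 4.06 (3.69 to 4.49) in photon organoids. Dtx3l was also higher in proton than in photon organoids, at 1.55 times (1.46 to 1.63).

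Parp14, a macrodomain protein that adds single ADP-ribose units, had the highest control ratio of the 7 genes in photon organoids. Its level was 119 CPM (116 to 123) in proton, 96.8 CPM (94.0 to 99.6) in photon and 20.5 CPM (19.1 to 21.9) in control organoids. The ratio to control was 5.83 (5.41 to 6.29) in proton and 4.73 (4.38 to 5.10) in photon organoids. Proton over photon gave 1.23 (1.18 to 1.29), short of the rule of size.

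Parp12, a zinc-finger PARP with antiviral activity, had 58.0 CPM (55.5 to 60.5) in proton, 37.0 CPM (35.2 to 38.7) in photon and 12.3 CPM (11.3 to 13.5) in control organoids. The ratios to control were 4.70 (4.26 to 5.20) in proton and 2.999 (2.71 to 3.32) in photon organoids. Parp10, which carries RNA recognition and ubiquitin-binding motifs, had the fewest UMIs of the 7 in photon and control organoids, with 703 UMIs in proton, 565 in photon and 225 in control organoids. These gave 19.2 CPM (17.8 to 20.6), 12.0 CPM (11.1 to 13.1) and 5.69 CPM (4.97 to 6.49), and ratios to control of 3.36 (2.89 to 3.93) in proton and 2.11 (1.81 to 2.48) in photon organoids. Parp10 overlaps Plec on the same strand by 1401 bp, so that reads in the shared stretch make the Parp10 counts uncertain. Plec itself was at 169 CPM in proton, 123 CPM in photon and 177 CPM in control organoids, and did not pass the rule of size in either irradiated library over control.

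Parp1, the main sensor of broken DNA in the family, had 18.0 CPM (16.7 to 19.5) in proton, 29.5 CPM (28.0 to 31.1) in photon and 27.3 CPM (25.7 to 29.0) in control organoids. The ratio to control was 0.660 (0.598 to 0.728) in proton and 1.08 (0.996 to 1.17) in photon organoids. Parp2, its closest relative in DNA repair, had 26.9 CPM (25.3 to 28.7) in proton, 42.8 CPM (40.9 to 44.7) in photon and 41.3 CPM (39.3 to 43.3) in control organoids. Its ratio to control was 0.652 (0.602 to 0.706) in proton and 1.04 (0.970 to 1.11) in photon organoids. Both proton ratios lie close to the limit of the rule: without the cells of cluster 3, described below, they were 0.672 for Parp1 and 0.705 for Parp2 and no longer passed. With ratios centred on genes of like length the proton ratio of Parp2 was 0.736, also short of the rule.

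In proton against photon organoids, Dtx3l, Parp12 and Parp10 were called higher, where 22.2% of 10157 genes were higher, and Parp1 and Parp2 were called lower, where 14.0% of genes were, so that 5 of the 7 were called where 36.2% of genes were called in either direction. Parp12 stood at 1.57 times (1.47 to 1.67) and Parp10 at 1.59 times (1.42 to 1.78) the photon level. Parp1 and Parp2 stood at 0.611 (0.557 to 0.671) and 0.630 (0.583 to 0.680) times the photon level. Scaling the libraries by the median of gene ratios in place of total UMIs gave 1.41 for Dtx3l, 1.43 for Parp12 and 1.45 for Parp10, all short of the rule, and 0.559 for Parp1 and 0.576 for Parp2. Without cluster 3 only Parp1 passed, at 0.622.

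Summed over the 5 interferon-linked genes, the level was 382 CPM in proton, 309.7 CPM in photon and 77.6 CPM in control organoids. Parp1 and Parp2 together gave 45.0 CPM in proton, 72.3 CPM in photon and 68.6 CPM in control organoids. For each UMI of Parp1 or Parp2, a library thus held 8.49 (8.06 to 8.94) UMIs of the interferon-linked genes in proton, 4.29 (4.13 to 4.45) in photon and 1.13 (1.07 to 1.19) in control organoids. This quantity compares genes within a library and does not depend on the library totals. Parp2 UMIs per Parp1 UMI numbered 1.49 (1.35 to 1.65), 1.45 (1.35 to 1.55) and 1.51 (1.40 to 1.63) in the proton, photon and control libraries, which overlap.

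Dtx3l and Parp9 were not in the same proportion in the 3 libraries. Dtx3l UMIs per Parp9 UMI were 0.740 (0.705 to 0.777) in proton, 0.451 (0.429 to 0.473) in photon and 0.472 (0.423 to 0.526) in control organoids. The photon and control intervals overlap, and the proton interval lies above both. Parp14 UMIs per Parp9 UMI were 1.12 (1.07 to 1.17) in proton, 0.856 (0.823 to 0.891) in photon and 0.771 (0.703 to 0.846) in control organoids. Parp12 gave 0.545, 0.327 and 0.464 UMIs per Parp9 UMI and Parp10 gave 0.180, 0.107 and 0.214 in proton, photon and control organoids, so that for these 2 genes the photon library had the lowest proportion. Dtx3l per Parp9 was higher in proton than in photon organoids in each of 7 cell clusters, for instance 0.800 (0.713 to 0.898) against 0.454 (0.414 to 0.497) in cluster 2. The intervals overlapped in cluster 0, with 0.596 (0.369 to 0.948) in proton and 0.494 (0.423 to 0.576) in photon organoids, and in cluster 4, with 0.471 (0.176 to 1.15) and 0.204 (0.124 to 0.321).

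**Figure D2:**
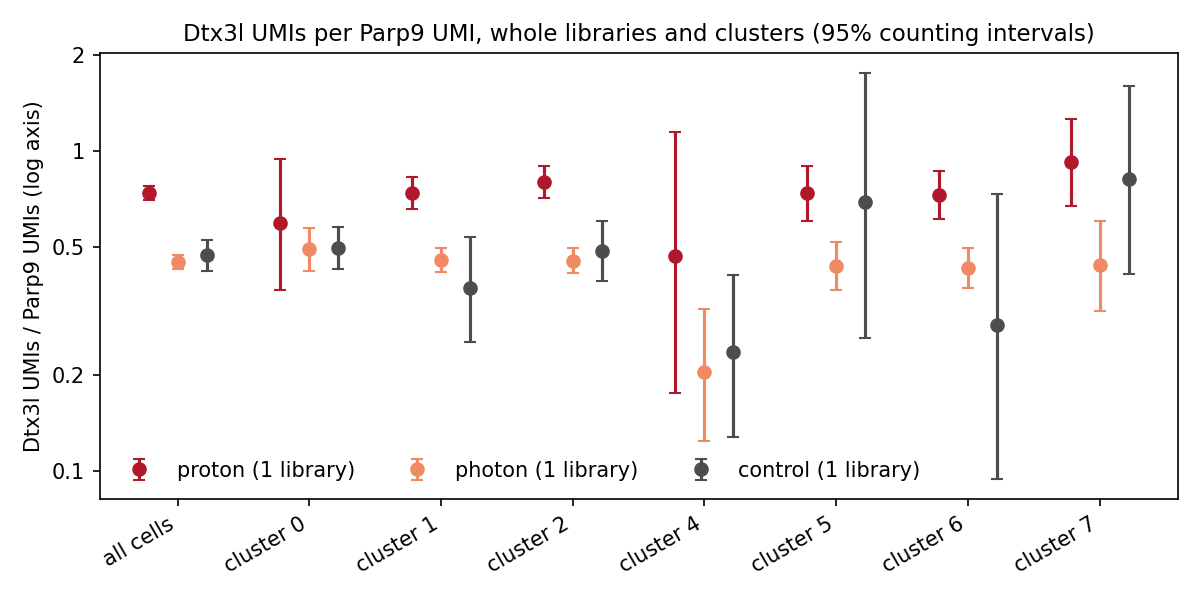
Dtx3l UMIs per Parp9 UMI on a log axis for all cells and for 7 clusters, with proton, photon and control libraries as points and bars for 95% counting intervals. The proton point (0.740 over all cells) lies above the photon point in all 7 clusters, while the wide control bars in clusters 5, 6 and 7 come from few UMIs.

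Gene length moved with the contrast between proton and photon organoids. Over genes passing the minimum, the median log2 ratio of proton over photon was -0.36 in the shortest of 10 length classes and 0.72 in the longest, and the part of length in the results below was not tested. Dtx3l and Parp10, at 12641 and 12268 bp, belong to a length class with a median of -0.23 and had log2 ratios of 0.63 and 0.67. Parp2, at 13461 bp, is of the same class and had -0.67. Parp9, Parp1 and Parp12, at 34136, 32331 and 31940 bp, belong to a class with a median of 0.13 and had -0.09, -0.71 and 0.65. Parp14, at 38671 bp, had 0.30, against 0.25 in its class. Centred on these classes, the ratios of proton over photon were 1.81 for Dtx3l, 1.86 for Parp10, 1.43 for Parp12, 0.558 for Parp1 and 0.738 for Parp2, so that Parp12 and Parp2 no longer passed the rule.

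**Figure D3:**
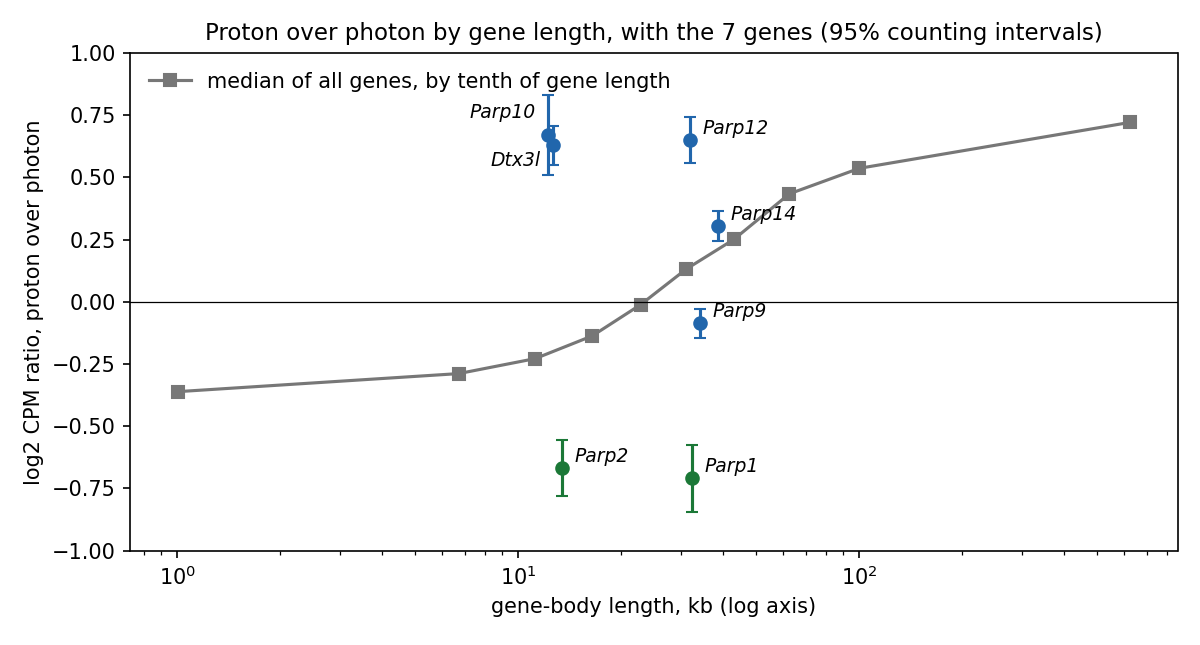
Log2 ratio of proton over photon CPM against gene-body length in kb on a log axis, with grey squares for the median of all genes in each of 10 length classes and bars for 95% counting intervals of the 7 genes. Dtx3l and Parp10 (0.63 and 0.67) stand above the median of genes of their length (-0.23), Parp14 near it, and Parp1 and Parp2 below it.

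To set libraries of different depth side by side, each cell was thinned to 2000 UMIs and shallower cells were left out, which kept 7939 proton, 10891 photon and 9620 control cells and left out 6017, 4150 and 3599. At least 1 UMI of an interferon-linked gene was found in 49.6% (48.4 to 50.7) of proton, 43.7% (42.8 to 44.6) of photon and 13.4% (12.7 to 14.1) of control cells. Without thinning the shares were 53.1%, 54.0% and 18.9%, so that the order of proton and photon depends on the depth per cell. UMIs of 2 or more of the 5 genes were found in 14.3%, 10.5% and 0.852% of thinned proton, photon and control cells. Parp1 or Parp2 was found in 8.78% (8.17 to 9.42) of proton, 13.2% (12.6 to 13.9) of photon and 12.7% (12.0 to 13.4) of control cells. No cell class that should lack these genes was available, so the share given by free RNA is unknown.

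Parp14 and Parp9 were the most often found of the 5 genes. Parp14 was found in 19.9% (19.0 to 20.8) of proton, 16.7% (16.0 to 17.4) of photon and 3.64% (3.27 to 4.03) of control cells, and Parp9 in 18.2% (17.3 to 19.1), 19.7% (18.9 to 20.4) and 4.94% (4.51 to 5.39). Dtx3l was found in 13.8% (13.1 to 14.6) of proton, 9.71% (9.16 to 10.3) of photon and 2.25% (1.96 to 2.56) of control cells. Parp12 was found in 11.0%, 7.28% and 2.41%, and Parp10 in 3.68%, 2.41% and 1.09%, of proton, photon and control cells. Parp1 was found in 3.43% (3.04 to 3.85) of proton, 5.44% (5.02 to 5.88) of photon and 5.44% (4.99 to 5.91) of control cells, and Parp2 in 5.55%, 8.20% and 7.86%. Most positive cells held a single UMI, for example 85.5% of the proton cells with Parp14, so these shares describe detection and are not shares of expressing cells.

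Cells with a Dtx3l UMI held Parp9 somewhat more often than cells without one. Parp9 was found in 20.4% (18.1 to 22.9) of proton cells with Dtx3l against 17.8% (16.9 to 18.8) without it, and in 23.0% against 19.3% of photon cells. In control cells it was 6.02% (3.24 to 10.1) against 4.91% (4.48 to 5.37), on 13 cells with both genes. In cells with and without Parp1, the shares with Parp9 were 16.9% and 18.2% in proton, 20.9% and 19.6% in photon, and 6.50% and 4.85% in control organoids. With and without Parp14 they were 21.9% and 17.3%, 23.3% and 19.0%, and 4.86% and 4.94%. Parp14 was found in 24.0% of proton cells with Dtx3l against 19.2% without it, in 21.3% against 16.2% of photon cells and in 6.02% against 3.58% of control cells. At 1 UMI per positive cell, such small differences describe the libraries and no more.

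The level of the interferon-linked genes was next set against the interferon response of the same cell, measured as the UMIs of 40 other interferon-stimulated genes among its 2000. The median cell held 12 such UMIs in proton, 14 in photon and 1 in control organoids. In proton organoids the 5 genes summed to 181 CPM (145 to 224) in 240 cells with 1 to 3 interferon UMIs, 264 CPM (250 to 279) in 2376 cells with 4 to 9, and 434 CPM (422 to 447) in 5316 cells with 10 or more. In photon organoids the sums were 152 CPM (117 to 194), 227 CPM (214 to 241) and 336 CPM (327 to 345) over the same steps. In control organoids they were 60.2 CPM (53.6 to 67.5) in cells with 0, 70.7 CPM (66.1 to 75.6) with 1 to 3, 122 CPM (107 to 139) with 4 to 9, and 277 CPM (181 to 405) in the 47 cells with 10 or more. The sum of the 5 genes was thus higher in cells with more interferon UMIs within each library, including the unirradiated one. At a like step the sum was higher in both irradiated libraries than in control up to 9 UMIs. With 10 or more UMIs the control interval, which rests on 26 UMIs, includes the photon level. Single genes did not rise at every step. From the step of 1 to 3 to that of 4 to 9 UMIs, Parp10 went from 12.5 to 12.0 CPM in proton and from 7.11 to 7.03 CPM in photon organoids. Parp12 went from 28.4 to 27.2 CPM in photon organoids over these steps. In control organoids Parp9 was at 23.0 CPM with 0 and with 1 to 3 UMIs. Control Parp12 went from 17.9 CPM with 4 to 9 to 10.6 CPM, a single UMI, with 10 or more.

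Parp1 and Parp2 summed did not rise over the steps in proton and control organoids. In photon organoids their sum rose from step to step, and within each library the intervals overlapped from step to step. Their sum was 50.0, 46.9 and 45.3 CPM in proton organoids from 1 to 3 up to 10 or more interferon UMIs, 56.9, 70.1 and 71.1 CPM in photon organoids, and 70.9, 68.5, 69.5 and 63.8 CPM in control organoids from 0 upwards. The steps are ranges of a count: 13.8% of proton, 10.7% of photon and 0.270% of control cells held 9 or 10 interferon UMIs, at the edge of the highest step. Only 7 proton and 8 photon cells held 0, too few for a level.

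**Figure D4:**
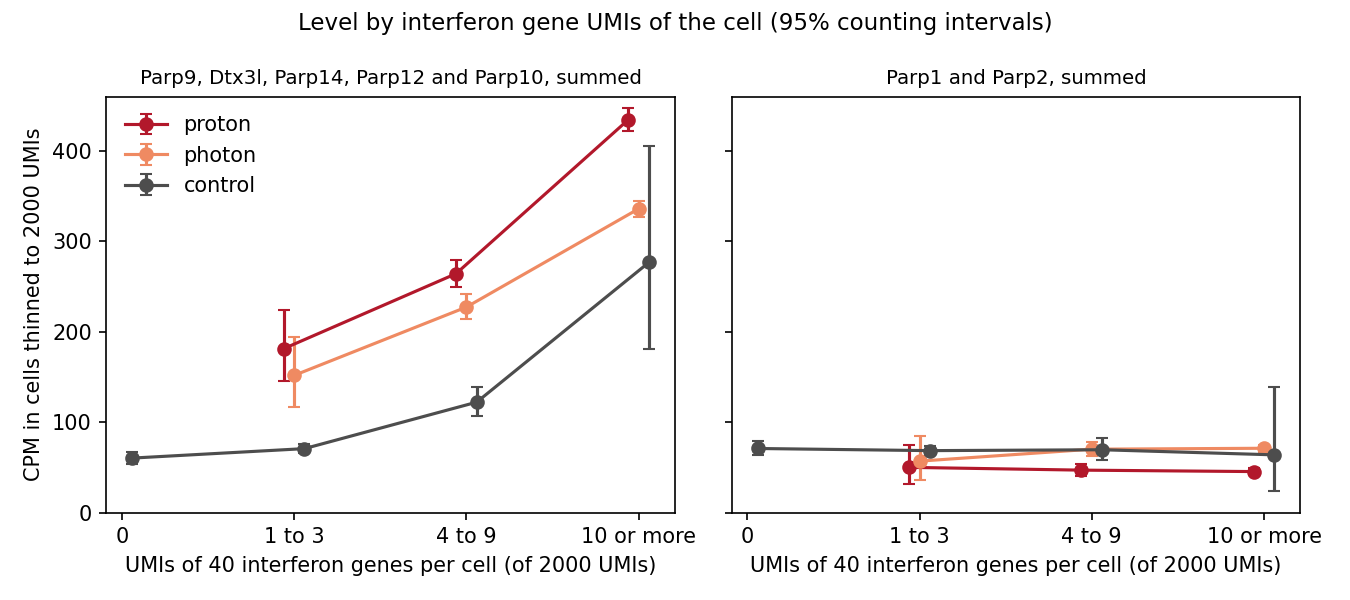
Summed CPM of the 5 interferon-linked genes (left) and of Parp1 and Parp2 (right) in cells thinned to 2000 UMIs, by the number of UMIs of 40 interferon genes per cell, with lines for the proton, photon and control libraries and bars for 95% counting intervals. The left panel rises with the interferon UMIs in every library (434 CPM in the highest proton step, 336 CPM in photon, 277 CPM in control), and the right panel stays near 45 to 71 CPM.

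Cells were clustered without the 7 genes, the gene lists and the cycling markers into 10 clusters, of which 7 held at least 100 cells in each library. Cluster 6 was cycling-like by its markers (Mki67, Top2a, Cdk1) and cluster 7 squamous-like (Krt13, Krt6a, Krtdap), though Cxcl3, Ppbp and S100a9, genes of inflammation, are also among its leading genes. The others are given by number and leading genes: cluster 0 by Aox3 and Orm3, cluster 1 by Cxcl10, Vim and Ccl5, cluster 2 by Klk1b11 and Crisp3, and cluster 5 by Igfbp2 and Acta2. Cluster 4 was shallow, with a median of 922.5 UMIs and a mitochondrial share of 3.99% in proton, 8.04% in photon and 9.60% in control cells. Cluster 3, led by Anks1b and Pcdh9, held 5070 proton, 411 photon and 28 control cells and was therefore not compared with control. Some compared clusters were uneven over the libraries too. Cluster 0 held 339 proton, 2335 photon and 7075 control cells, cluster 4 held 183, 784 and 2713, and cluster 6 held 944, 1386 and 132. A cluster is thus not a matched cell class across libraries.

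Each of the 5 interferon-linked genes was at least 1.5 times its control level in each of the 7 clusters in both irradiated libraries. Over clusters, Dtx3l ranged between 3.80 and 8.90 times control in proton and between 2.55 and 5.78 times in photon organoids. Parp14 ranged between 3.05 and 7.11 times control in proton and between 2.83 and 6.34 times in photon organoids. Parp9 ranged between 3.26 and 4.43 times and between 3.84 and 6.07 times, and Parp12 between 3.46 and 6.54 times and between 1.90 and 4.61 times. Parp10 had the widest range, 2.90 to 10.0 times in proton and 2.00 to 6.99 times in photon organoids, on few UMIs per cluster.

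Among the 7 compared clusters other than the shallow cluster 4, cluster 2 was the highest for the sum of the 5 genes, with 454 CPM in proton, 372 CPM in photon and 90.8 CPM in control cells. Clusters 5 and 7 were the lowest of the 7 in irradiated organoids: cluster 5 held 246, 201 and 56.3 CPM, and squamous-like cluster 7 held 241, 221 and 70.2 CPM, in proton, photon and control cells. The shallow cluster 4 held 497, 452 and 92.6 CPM. Of the clusters left out for having under 100 cells in a library, cluster 3 held 431, 373 and 111 CPM, cluster 8 held 423, 428 and 113 CPM, and cluster 9 held 109 CPM, 117 CPM and 29.7 CPM in proton, photon and control cells. Clusters 0 and 1 held 348 CPM each in proton and 293 and 323 CPM in photon cells, against 73.4 and 72.8 CPM in control cells. The cycling-like cluster 6 held 324, 266 and 57.2 CPM, below the value of all cells in each library. The 70 ratios of single genes to control, 5 genes in 7 clusters and 2 irradiated libraries, were all at or above 1.5. Their counting intervals lay above 1 in all 7 clusters for Parp9, Dtx3l and Parp14 in both libraries, in 7 proton and 6 photon clusters for Parp12, and in 6 proton and 5 photon clusters for Parp10.

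Parp1 and Parp2 followed another order over clusters. They were highest in cycling-like cluster 6, at 66.9 CPM in proton, 107 CPM in photon and 95.7 CPM in control cells, and lowest in the shallow cluster 4, at 22.6, 43.7 and 40.1 CPM. Cluster 0 held 30.9, 59.6 and 70.2 CPM and cluster 2 held 41.9, 63.5 and 74.6 CPM in proton, photon and control cells. In cluster 7 the 3 libraries overlapped, at 50.5, 49.9 and 54.4 CPM. The interval of the ratio of proton over control lay below 1 in 4 of 7 clusters for Parp1 and in 3 of 7 for Parp2. In photon over control, neither gene passed the ratio of 1.5 in any of the 7 clusters.

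Between proton and photon organoids, Dtx3l was 1.33 to 1.66 times, Parp12 1.42 to 2.15 times, Parp10 1.33 to 2.33 times and Parp14 1.04 to 1.33 times the photon level over the 7 clusters. The counting interval lay above 1 in 5 of 7 clusters for Dtx3l and Parp12 and in 3 of 7 for Parp10 and Parp14. Parp9 ranged between 0.662 and 1.11 and was above 1 in 1 cluster. With a finer clustering (8 clusters held at least 100 cells per library) the ratio of Dtx3l stayed above 1 in 8 of 8, but those of Parp12, Parp10 and Parp14 reached 0.799, 0.696 and 0.899 in their lowest cluster.

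**Figure D5:**
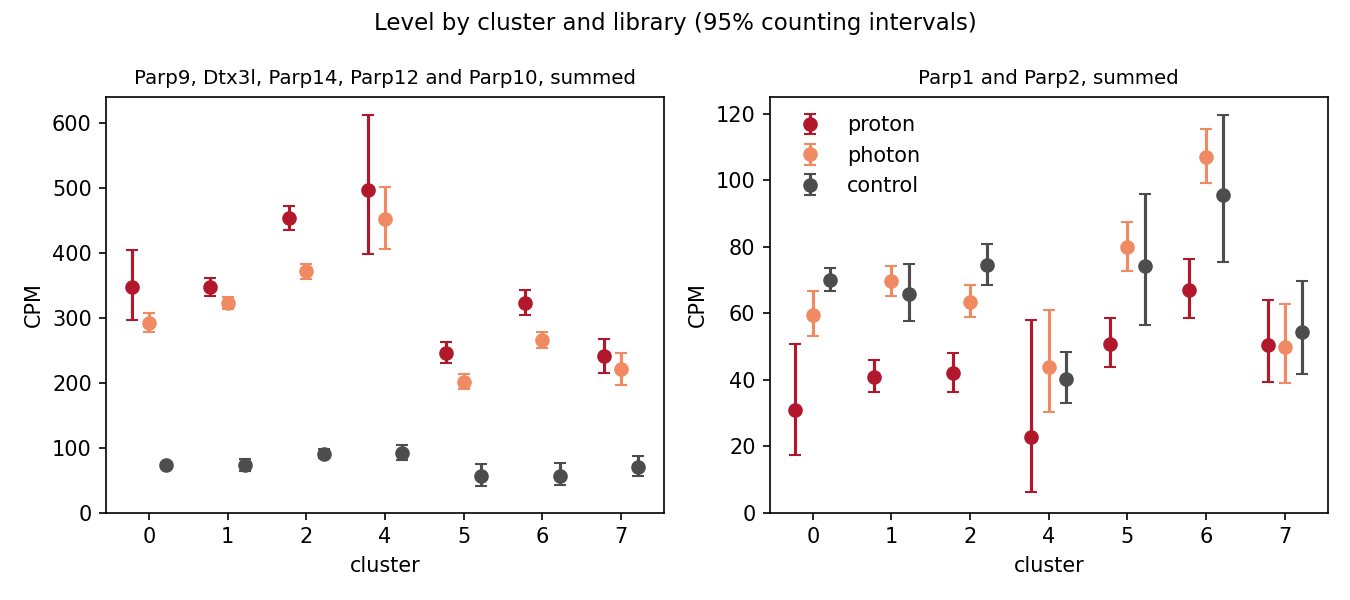
CPM summed over Parp9, Dtx3l, Parp14, Parp12 and Parp10 (left) and over Parp1 and Parp2 (right) in 7 cell clusters, with points for the proton, photon and control libraries and bars for 95% counting intervals. On the left both irradiated libraries lie above control in all 7 clusters; on the right cluster 6, cycling-like, is highest in each library (66.9, 107 and 95.7 CPM in proton, photon and control).

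The genes whose level over clusters was most like the sum of the 5 were ranked by Pearson's r of log2(CPM + 1) over 21 values, 7 clusters in each of 3 libraries, after each library's mean was subtracted. The 6 most alike of 5841 genes were Mdm2 (r = 0.98), Celf2 (0.96), Slc4a4 (0.95), Ano3 (0.95), Tor1aip1 (0.95) and Cgnl1 (0.95), none of them in the interferon list. Celf2, Slc4a4, Ano3 and Cgnl1 are long, at 969870, 352836, 295723 and 145094 bp, while Mdm2 and Tor1aip1 span 21884 and 31882 bp. Values from 1 library share that library, and the shallow cluster 4, with its high Malat1 share, is a high point in each. The part of gene length and of cluster 4 in this ranking was not tested. Mdm2, which encodes the ligase that limits p53, stood at 147 CPM in proton, 121 CPM in photon and 72.1 CPM in control organoids. Tor1aip1, a nuclear envelope gene, stood at 147, 139 and 69.8 CPM. The summed interferon list had r = 0.35 within libraries and 0.93 without subtracting the library means, and Parp1 and Parp2 had -0.17 and -0.65 within libraries. Without cluster 4, over 18 values, the interferon list had r = 0.78, and the 6 most alike genes were Mdm2 (0.97), Tor1aip1 (0.96), Celf2 (0.95), Met (0.94), Clu (0.94) and Ano3 (0.93). Slc4a4 (0.93) and Cgnl1 (0.92) were no longer among them.

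All 40 genes of a list of other interferon-stimulated genes were called higher over control in both irradiated libraries. Over all genes, 14.2% were higher in proton and 7.37% in photon organoids. The list was chosen with earlier results of these data known, so its count is no independent result. The median log2 ratio of the 40 was 3.28 in proton and 3.53 in photon organoids, both above the medians of the 5 genes. The 3 with the largest change were Oas2, which makes the activator of an RNA-degrading enzyme, Ifit3, which joins in blocking foreign RNA, and Iigp1, an immunity-related GTPase. Oas2 stood at 18.0 CPM in proton and 11.2 CPM in photon organoids against a single UMI in control, giving ratios of 712 (127 to 28158) and 444 (79.3 to 17557). Ifit3 stood at 198 CPM in proton, 385 CPM in photon and 1.27 CPM in control organoids, and Iigp1 at 76.0, 81.9 and 0.304 CPM. Bst2, a surface protein that tethers virus particles and the most abundant of the 40, stood at 1379, 1754 and 96.3 CPM. Against photon, 5 of the 40 were higher and 8 lower in proton organoids, where 22.2% of all genes were higher and 14.0% lower. The median log2 ratio of the 40 was -0.10, whereas the 5 interferon-linked genes had a median of 0.63.

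Of 18 genes of JAK-STAT signalling and the interferon regulatory factors, 5 were higher and 1 lower in proton organoids (16 passed the minimum), and 5 were higher and 0 lower in photon organoids (17 passed), over control. The shares over all genes were 14.2% higher and 14.9% lower in proton, and 7.37% higher and 9.45% lower in photon organoids. Irf7, the factor that amplifies interferon production, stood at 382 CPM in proton, 399 CPM in photon and 29.9 CPM in control organoids. Usp18, which restrains interferon receptor signalling, stood at 81.9, 111 and 12.5 CPM. The median log2 ratio of the list was 0.22 in proton and 0.30 in photon organoids.

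Among 10 other PARP genes, 9 passed the minimum, and 3 were higher and 0 lower in proton organoids, against 2 higher and 0 lower in photon organoids. Beside these counts and those of the Deltex ligases below, 14.2% of all genes were higher and 14.9% lower in proton organoids. In photon organoids 7.37% of all genes were higher and 9.45% lower. Parp11, which adds single ADP-ribose units and has been tied to the interferon receptor, stood at 27.9 CPM in proton, 18.6 CPM in photon and 9.21 CPM in control organoids, 3.03 times (2.69 to 3.43) and 2.02 times (1.78 to 2.29) control. Zc3hav1, the zinc-finger antiviral protein, stood at 110.2 CPM in proton, 95.8 CPM in photon and 47.9 CPM in control organoids. Parp8, a long gene of 170718 bp, stood at 189, 89.2 and 118 CPM, and Tnks2, a tankyrase that builds ADP-ribose chains, at 264, 252 and 248 CPM. The median log2 ratio of the 9 was 0.52 in proton and -0.13 in photon organoids. Of 4 other Deltex ligases, 3 passed the minimum, with 1 higher in proton (Dtx4, at 14.0, 9.23 and 8.93 CPM in proton, photon and control organoids) and none past the rule in photon organoids. Dtx3, the most abundant of them, stood at 14.3, 12.6 and 16.4 CPM. Median log2 ratios of these ligases were 0.06 in proton and -0.20 in photon organoids.

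Of 15 genes linked to the turnover of ADP-ribose, 14 were in the files and 13 passed the minimum over control. In proton organoids 1 was higher and 4 were lower, with a median log2 ratio of -0.35, and in photon organoids 1 was higher and 1 lower, with a median of -0.03. Beside these counts and those of NAD metabolism below, 14.2% of all genes were higher and 14.9% lower in proton organoids. In photon organoids 7.37% of all genes were higher and 9.45% lower. Macrod1, a long gene of 141248 bp, stood at 18.0 CPM in proton, 26.5 CPM in photon and 41.9 CPM in control organoids, lower in both. It encodes a hydrolase that removes single ADP-ribose units. Oard1, a hydrolase of the same kind, stood at 17.7, 37.9 and 37.2 CPM, lower in proton alone by this rule. Macrod2, a related hydrolase in a very long gene of 1997658 bp, stood at 13.7, 7.52 and 5.92 CPM. H2afy, a macrodomain histone and the most abundant of the list, stood at 141, 247 and 209 CPM, which did not pass the rule over control. Of 15 genes of NAD metabolism, 9 passed the minimum, and 2 were higher and 1 lower in proton, against 1 higher and 0 lower in photon organoids, with medians of 0.04 and -0.12 on the log2 scale. Nampt, the rate-limiting enzyme of NAD salvage, stood at 67.1 CPM in proton, 54.3 CPM in photon and 31.6 CPM in control organoids. Nadk2, a mitochondrial NAD kinase, stood at 17.9, 13.6 and 11.6 CPM, Naprt, which makes NAD from nicotinic acid, at 3.49, 6.20 and 6.76 CPM, and the kinase Nadk, the most abundant of the list, at 67.2, 57.4 and 71.1 CPM.

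Of 30 DNA repair genes, 3 were higher and 2 lower in proton organoids (27 passed the minimum) and 7 were higher and 1 lower in photon organoids (28 passed), over control. Over all genes the shares were 14.2% higher and 14.9% lower in proton, and 7.37% higher and 9.45% lower in photon organoids, so the proton counts of this list lie near or below those of all genes. In photon organoids the count of higher genes, 7 of 28, lies above the share of all genes, and that of lower genes, 1 of 28, below it. Brca1, a ligase of homologous recombination, stood at 11.2 CPM in proton, 10.0 CPM in photon and 2.10 CPM in control organoids. Its partner Bard1 stood at 14.6, 8.44 and 3.77 CPM. Rbbp8, which starts the trimming of broken ends and was the most abundant of the list, stood at 115, 121 and 159 CPM. The median log2 ratio of the list was 0.16 in proton and 0.12 in photon organoids. These are proliferation-linked genes in part, and the cycling markers given above were also higher in both irradiated libraries. Their part in these ratios was not tested. In cells without a UMI of a cycling marker, the photon ratios to control of Parp1 and Parp2 were 0.960 and 0.914.

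No other gene of at least 5 CPM within 100 kb of Parp9, Dtx3l or Parp14 was called higher in both irradiated libraries over control. Kpna1, 6144 bp from Parp9, stood at 69.4 CPM in proton, 39.5 CPM in photon and 57.2 CPM in control organoids. Hspbap1, 4396 bp from Parp14, stood at 16.3, 12.0 and 15.8 CPM. Neither passed the rule over control, though Kpna1 was called higher in proton than in photon organoids, at a ratio of 1.75. Gm15564, the gene antisense to Parp9, was called higher in proton organoids over control (3.83) and over photon (3.58). Its ratio of photon over control was 1.07. Fam162a, in the same stretch, was higher over control in photon organoids alone by this rule, at 298, 453 and 261 CPM. Near Parp12, Kdm7a stood at 56.7, 39.1 and 68.0 CPM and was lower in photon organoids, while the antisense gene 4930599N23Rik, 123 bp from Parp12, stood at 8.53, 11.5 and 7.34 CPM and was higher in photon organoids. Near Parp2, Osgep stood at 14.9, 29.0 and 32.4 CPM, lower in proton organoids like Parp2 itself, and near Parp1, Lin9 stood at 16.8, 14.0 and 10.5 CPM, higher in proton organoids.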

How the data were processed

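Deposited files hold UMI counts per gene and cell, made by the authors with Cell Ranger 7.0.1 on mm10, per the submitters' processing notes; the deposited matrices' file headers name 7.0.0. The authors' deposited counts are not normalised, and the 3 libraries list the same genes. Members and gene lists were chosen with earlier results of these data known. Cells were kept at 500 or more genes and at most 20% mitochondrial UMIs; no doublet caller was run and no doublets were removed. UMIs were summed per library and divided by the library total (CPM), with exact Poisson, conditional binomial and Clopper-Pearson intervals at 95%. Ratios were called at 1.5 in either direction with a mean of at least 5 CPM. The number of libraries, 1 per group, allows no test. Detection used cells thinned to 2000 UMIs. Counts of 3 UMIs, the floor, equal 0.0818, 0.0639 and 0.0759 CPM in the proton, photon and control libraries. Clustering used scanpy 1.11.5 and leidenalg 0.10.2 (2000 variable genes, 30 principal components, 20 neighbours, resolution 0.5). The scripts used python 3.11.15, numpy 2.4.6, scipy 1.17.1, scikit-learn 1.9.0 and matplotlib 3.10.9 and were tested on simulated data. Gene positions came from GENCODE on GRCm38. From each list the text names up to 3 genes past the rule with the largest ratio over control and the most abundant gene, except that some genes so chosen are not reported here; neighbours were chosen among genes of at least 5 CPM, and the few printed were chosen after their values were seen. Alternatives were other scalings, CPM minimums, ratios, cell filters and cluster resolutions, and, chosen after seeing the data, length centring and leaving out clusters 3 or 4 or cells with cycling UMIs.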

Additional observations from a re-analysis of the deposited data

Results flagged for a closer look

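Parp1 differed between the radiation types, with 0.611 times the photon level in proton organoids: proton over control was 0.660 and photon over control 1.08. Parp2 did likewise, at 0.630 times the photon level. Parp8 stood in the opposite order, at 2.12 times the photon level, with 1.60 in proton and 0.754 in photon organoids over control. H2afy stood at 0.572 times the photon level, with 0.674 in proton and 1.18 in photon organoids over control. In each of these 4 genes the proton ratio to control lay on one side of 1 and the photon ratio on the other. For Parp1 and Parp2 the photon intervals, 0.996 to 1.17 and 0.970 to 1.11, include 1, and in cells without a UMI of a cycling marker their photon ratios were 0.960 and 0.914, on the proton side of 1. With the class mixture held equal the photon ratio of Parp2 was 0.985. The differences were not tested, since each group is 1 library, and both ratios share the control library.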

How the results depend on the processing

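Of the 17 member ratios past the rule, all 17 kept their direction under each of 12 alternatives, and 178 of 204 values still passed. Alternatives that changed only the CPM minimum or the ratio of the rule left the member ratios as they were, so direction could not change under them. With no CPM minimum, all 17 pass by construction. Members past the rule in proton over photon numbered 5, against 2 with scaling by the median of gene ratios, 3 with a minimum of 25 CPM, 0 at a ratio of 2, 3 with length centring and 1 without cluster 3. Dtx3l, Parp12 and Parp10 each fell short of the rule in 4 of the 12 alternatives. For Dtx3l these include the class mixture held equal, with the 7 compared clusters weighted alike. Its ratios to control were then 5.73 in proton and 3.86 in photon organoids. In photon over control they numbered 5, against 3 with a minimum of 25 CPM. In proton over control they numbered 7, against 5 with a minimum of 25 CPM (Parp10 and Parp1 lost), 5 at a ratio of 2 and 5 without cluster 3 (Parp1 and Parp2 lost in both), and 6 with length centring. Genes past the rule in photon over control, proton over control and proton over photon numbered 1698, 2965 and 3676 of 10090, 10211 and 10157 tested. With a minimum of 25 CPM they were 807, 1507 and 2266 of 5790, 5870 and 5814. With no minimum they were 9724, 11345 and 11549 of 23475, 23527 and 23518. At a ratio of 2 they were 514, 1024 and 673 of the genes tested in the main setting. With the class mixture held equal 728 of 10197 genes passed in photon over control, and with length centring 2144 of 10157 in proton over photon. The cause was not tested. In proton over photon, scaling by the median of gene ratios gave 1482 higher and 1946 lower of 10157 genes. Without cluster 3, 1273 were higher and 1228 lower of 10098 genes. Scaling by the median of gene ratios moved the share of higher calls in photon over control to 63.0%, against 43.8%, and in proton over photon to 43.2%, against 61.4%, while the median log2 ratio of all genes moved to -0.01, against -0.12, in photon over control and to -0.01, against 0.12, in proton over photon. Interferon-linked UMIs per UMI of Parp1 or Parp2 ranged over the alternatives between 7.32 and 9.98 in proton, 4.22 and 5.26 in photon and 1.08 and 1.14 in control organoids. Dtx3l UMIs per Parp9 UMI ranged between 0.706 and 0.756, 0.406 and 0.462, and 0.461 and 0.490. No paired analysis was possible because each group is 1 library, and for the same reason no replicate could be left out. Parp10, with 225 control UMIs, is the gene most limited by depth.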
